A study of Caenorhabditis elegans with 6 samples.

Results

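The cuticlin (cut-) and cuticlin-like (cutl-) genes of C. elegans were examined for peaks of ELT-3, a GATA transcription factor of the epidermis. The assay was chromatin immunoprecipitation followed by sequencing (ChIP-seq), which reads out the DNA that a protein sits on. The genes were chosen by a rule on gene names, which used no peak: every protein-coding gene of the WBcel235 annotation whose name starts with cut- or cutl- was taken, which gave 35 of 19973 genes, 6 cut- and 29 cutl-. Per the labels, the chromatin came from whole L3 larvae, pooled male and female, of strain OP75 (unc-119(ed3) III; wgIs75), a transgenic line that stably expresses ELT-3 with GFP-FLAG at its C-terminus. All 6 libraries formed this 1 group, which held 4 biological replicates numbered 1, 2, 4 and 5, with 3 technical libraries of replicate 2 counted once. There was no second condition, no other stage and no strain without the tag among the libraries analysed here. Whether the replicates were separate cultures is not stated, and differences between them may be technical. The chromatin was from whole animals, so a peak in epidermal cells and a peak in other cells cannot be told apart.

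Cuticlins are secreted or membrane-anchored proteins of the nematode cuticle, named for the cuticle residue that resists extraction, in which proteins are held together by cross-links between tyrosines. Most carry a zona pellucida (ZP) domain, with which such proteins polymerise in apical extracellular matrices. In C. elegans they are known for the alae, the ridges that seam cells of the epidermis lay down along the body at particular stages. cut-1 acts in the alae of the dauer larva, cut-3 and cut-5 act in the alae of the first larval stage, and cut-2 encodes a component of the cross-linked residue that lacks the ZP domain. ELT-3 is known to act in the main body epidermis, and GATA factors bind the sequence WGATAR, in which W stands for A or T and R for A or G.

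Bound genes are those with the summit of a peak in the promoter, taken as the window from 1000 bp before to 200 bp after any 5′ end of a protein-coding transcript. Positions are given from the 5′ end, with negative numbers upstream. The optimal list held the 1047 peaks that the authors kept as reproducible, and these were the 1047 strongest of 14525 peaks called on the pooled reads. The strongest pooled peaks used here were 3141, which is 3 times as many, and the same number of nuclear peaks was taken from each replicate. Peak strength is the signal value of the authors' peak caller, used only to rank peaks within 1 list. It ranged from 39.9 to 234 in the optimal list and went down to 26.2 in the strongest pooled peaks. The −log10 q-value of the peak caller, higher for surer peaks, went down to 2.14 in the optimal list and to 0.585 in the strongest pooled peaks. No limit was set on it, so strong and weak refer to rank only. The read depth is unknown.

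No cuticlin promoter carried a summit of the optimal list, against 2.95% of all protein-coding promoters, and 2 of 35 carried one of the strongest pooled peaks, against 7.84%. Both counts are near what the share of all genes would give, 1.03 and 2.74 members. The 2 members were cut-2 and cutl-23. Another strong peak lay close upstream of cutl-28 but outside its promoter, and a peak of the optimal list lay in an intron of cutl-18. The 101 bases centred on these 4 pooled summits are shown because they are what the results turn on, together with a stretch of the cut-6 promoter, which held GATA motifs and no pooled summit. Each is given 5′ to 3′ on the strand of its gene, from the RefSeq WBcel235 assembly (the ce11 build of the files), and capitals mark WGATAR or its reverse complement:
cut-2, summit at −55, chrV:13414844-13414944, + strand: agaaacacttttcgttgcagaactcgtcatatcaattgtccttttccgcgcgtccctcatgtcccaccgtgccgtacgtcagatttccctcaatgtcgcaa
cutl-23, summit at −302, chrIII:5769833-5769933, + strand: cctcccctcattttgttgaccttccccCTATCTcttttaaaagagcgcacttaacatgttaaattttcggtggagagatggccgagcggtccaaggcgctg
cutl-28, summit at −1355, chrIV:683092-683192, + strand: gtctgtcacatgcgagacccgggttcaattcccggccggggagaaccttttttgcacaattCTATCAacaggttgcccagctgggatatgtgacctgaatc
cutl-18, summit at 2699, intron, chrV:11314152-11314252, − strand: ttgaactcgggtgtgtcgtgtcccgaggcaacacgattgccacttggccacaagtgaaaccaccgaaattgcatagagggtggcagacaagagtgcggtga
cut-6, promoter, no pooled summit, chrIII:10911321-10911426, + strand: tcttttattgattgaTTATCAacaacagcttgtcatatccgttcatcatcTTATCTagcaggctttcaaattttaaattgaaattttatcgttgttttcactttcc

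The cutl-23 and cutl-28 windows each held 1 motif, the cut-2 and cutl-18 windows held none, and the cut-6 stretch held 2. In the cutl-23 window, bases 72 to 101 are the start of an annotated tRNA gene on the same strand (III, 5769904 to 5769985). In the cutl-28 window, bases 1 to 43 are the end of another tRNA gene (IV, 683063 to 683134). The GC content was 49.5% in the cut-2 and cutl-23 windows, against a median of 43.6% at the 1392 promoter summits of the strongest pooled peaks. It was 52.5% in the cutl-28 window and 54.5% in the cutl-18 window, whose summits lay outside promoters. Like windows, not printed, at strong pooled summits outside promoters near cutl-21 (rank 2674) and cutl-22 (rank 3068) had 39.6 and 36.6%. The cut-6 stretch had 29.2%.

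In the optimal list, 0 of 35 cuticlin genes were bound, against 2.95% of all protein-coding genes. A count of 0 among 35 genes allows a share of up to 8.57%, taken as 3 divided by 35, and the Wilson 95% interval reaches 9.89%. At the share of all genes 1.03 bound members would have been found, so the count cannot tell the cuticlin genes from the rest. In the strongest pooled peaks, 2 of 35 cuticlin genes were bound (5.71%, Wilson 95% interval 1.58 to 18.6%), against 7.84% of all genes. They were 1 of the 6 cut- genes and 1 of the 29 cutl- genes. The interval holds the share of all genes. In the whole pooled list, 4 of 35 cuticlin genes were bound (11.4%, interval 4.54 to 26.0%), against 24.2% of all genes, and that share too lies inside the interval. The intervals cover counting error only, and the genes are not replicates of a condition.

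The replicates, taken one by one, gave like counts. Among the strongest peaks, 0, 0, 2 and 1 cuticlin genes were bound in replicates 1, 2, 4 and 5, against 5.74, 6.11, 7.39 and 7.53% of all genes. The mean was 0.75 ± 0.957 cuticlin genes (SD, n = 4), or 2.14 ± 2.74% of them, against 6.69 ± 0.903% of all genes. Both members behind these counts were bound in replicate 4, and cut-2 was bound also in replicate 5. No cuticlin gene was bound among the strongest peaks of every replicate, which allows a share of up to 8.57%, against 0.956% of all genes. At the share of all genes, 2.01, 2.14, 2.59 and 2.64 members would have been found. The Wilson interval of the cuticlin share reached 9.89, 9.89, 18.6 and 14.5% in the 4 replicates and held the share of all genes in each.

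The whole replicate lists reach far down into weak peaks and background, since each held close to 30000 regions. There, 11, 10, 13 and 13 cuticlin genes had a promoter summit in replicates 1, 2, 4 and 5 (mean 11.75 ± 1.5, SD, n = 4), against 39.0, 38.4, 40.3 and 40.5% of all genes. As a mean share, this was 33.6 ± 4.29% of the cuticlin genes and 39.6 ± 1.03% of all genes. A summit in at least 1 replicate was found for 28 cuticlin genes (80%), against 76.3% of all genes. A summit in every replicate was found for 3, cut-2, cutl-20 and cutl-23 (8.57%), against 9.59% of all genes. In a single replicate, a summit was found for 17 of 35 cuticlin genes (48.6%), against 28.6% of all genes. In 2 replicates it was 6 cuticlin genes (17.1%), against 23.1%, and in 3 replicates it was 2, cutl-14 and cutl-22 (5.71%), against 15.0%. The 7 members with none in any replicate were cutl-3, cutl-10, cutl-11, cutl-17, cutl-21, cutl-26 and cutl-29 (20%), against 23.7% of all genes. These shares carry no test.

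**Figure D1:**
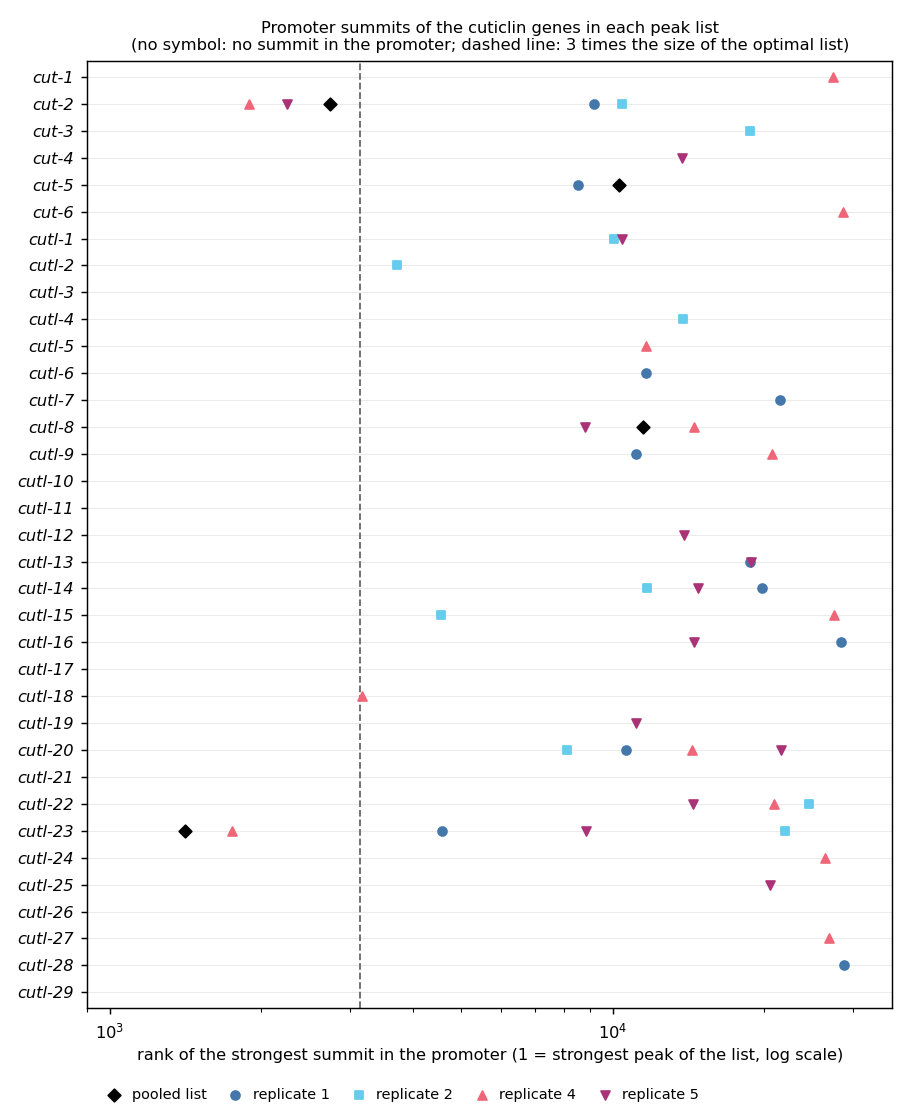
Rank of the strongest promoter summit (horizontal axis, log scale, strongest peaks to the left) of each of the 35 cuticlin genes (rows) in the pooled list and in replicates 1, 2, 4 and 5, with a dashed line at rank 3141. A list with no summit in the promoter has no symbol. cut-2 and cutl-23 alone have symbols left of the line.

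cut-2 (V, 13414949 to 13416064, + strand) had a pooled peak at V, 13414726 to 13415061, with rank 2738, a signal value of 27.5 and a −log10 q of 0.706. Its summit lay at −55. The strongest promoter summit had signal values of 7.27, 5.94, 14.3 and 8.84 in replicates 1, 2, 4 and 5, with ranks of 9171, 10411, 1889 and 2255. Replicates 4 and 5 were thus inside the 3141 strongest and replicates 1 and 2 were outside. The position was shared by 3 of the 4 replicates: it was −97, −61 and −50 in replicates 1, 4 and 5, within 42, 6 and 5 bp of the pooled summit. Replicate 2 had its summit at −443, and replicate 1 had 2 more, weaker ones. No WGATAR lay within 50 bp of the pooled summit and the nearest was 162 bp away, although the promoter held 7. The replicate 2 summit and the weakest of replicate 1, at −616, had a motif within 50 bp. The nearest tRNA, snoRNA or snRNA gene was 92309 bp from this summit.

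cut-2 stood among other peaks. Upstream of the promoter window, replicates 1 and 5 had summits of ranks 1018 and 949, at −1461 and −1475, each stronger than the promoter summit of the same replicate. Replicate 4 had a weak one there, of rank 23085 at −1431, and the pooled list one of rank 3359 at −1397. Past the gene, replicate 1 had another of rank 589 at 1822. A further pooled peak of rank 2297 lay at 1203 bp, past the end of the gene, with rank 199 in replicate 1, rank 14622 in replicate 4 and no matching summit within 100 bp in replicates 2 and 5. Another pair, of ranks 1286 and 1638, lay at −4062 and −3350. The first of these was in the promoter of F53F1.4 and also within 5000 bp of cutl-1. cutl-1 itself had no pooled promoter summit and weak ones in replicates 2 and 5, with ranks of 10067 and 10454.

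cutl-23 (III, 5770185 to 5774703, + strand) has 2 annotated 5′ ends, so its promoter window is longer, 1654 bp, than the 1201 bp of a gene with 1. Its pooled peak at III, 5769715 to 5770050, had rank 1409, a signal value of 35.6 and a −log10 q of 1.52, with the summit at −302 and a WGATAR 18 bp from it. In replicates 1, 2, 4 and 5 the strongest promoter summit had signal values of 8.82, 4.31, 14.8 and 5.18, with ranks of 4580, 21999, 1753 and 8850. Only replicate 4 was inside the 3141 strongest. The positions were less alike than at cut-2: 172, −287, −107 and −267, of which those of replicates 2 and 5 lay within 100 bp of the pooled summit. The strong replicate 4 summit and the replicate 1 summit did not. A motif within 50 bp was found at the replicate 2 summit alone, and not at those of replicates 1, 4 and 5.

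The tRNA gene beside the cutl-23 summit began 21 bp from it. Summits within 200 bp of a tRNA, snoRNA or snRNA gene were 250 of the 3141 strongest pooled peaks (7.96%) and 75 of the 1392 that lay in promoters (5.39%). Of those 75, 12 (16%) had a WGATAR within 50 bp, against 34.1% of the 1392. With those summits left out, a setting added after the data were seen, cut-2 was the 1 cuticlin gene bound in the strongest pooled peaks, against 7.46% of all genes. What the tRNA gene contributes to the cutl-23 peak was not tested.

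Only 2 further members had a pooled promoter summit, and both were weak, with a −log10 q of 0.0693 for cut-5 and 0.0511 for cutl-8. cut-5 (X) had one of rank 10285 and signal value 17.8 at −972, with a replicate summit in replicate 1 alone, of rank 8519 at −977. cutl-8 (I), a cuticlin-like gene, had one of rank 11495 and signal value 17.2 at −643 with a WGATAR within 50 bp. Its replicate 5 summit at −649, of rank 8806, was near the pooled one, while that of replicate 4, of rank 14532, was at −47.

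The members just outside the rank limit were cutl-18, with rank 3178 in replicate 4 at −693, cutl-2, with rank 3727 in replicate 2 at −517, and cutl-15, with rank 4555 in replicate 2 at −35. Each had no promoter summit of such strength in another replicate and none in the pooled list. Just inside the limit were cut-2 in the pooled list and in replicate 5. Among the other cut- genes, cut-1 had a summit in replicate 4 alone (rank 27412, at −22) and cut-3 in replicate 2 alone (rank 18739, at 65). cut-4 had one in replicate 5 alone (rank 13730, at 9) and cut-6 in replicate 4 alone (rank 28717, at −246). All 6 cut- genes thus had a summit in some replicate, against 76.3% of all genes. In at least 2 replicates it was 1 of the 6, cut-2 (16.7%, interval 3.01 to 56.4%), against 47.8% of all genes, a share inside the interval. cutl-20 was the member with a weak summit in every replicate, of ranks 10628, 8100, 14388 and 21595, at −578, −857, −326 and 173, and it had none in the pooled list.

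The promoters were not without GATA motifs. WGATAR, searched on both strands, was present in 30 of 35 cuticlin promoters (85.7%, Wilson 95% interval 70.6 to 93.7%), against 94.5% of all protein-coding promoters of the same window. The share of all promoters thus lies just above the interval, and the motif was found somewhat less often in cuticlin promoters. It was present in each of the 6 cut- promoters and in 24 of 29 cutl- promoters (82.8%, interval 65.5 to 92.4%). The difference was not tested. Per kb, cuticlin promoters held 2.21 matches, against 2.55 in all promoters. TGATAA, 1 of the forms of WGATAR, was present in 23 of 35 (65.7%, interval 49.2 to 79.2%), against 75.4%. By name class, cut- promoters held 4.02 WGATAR per kb and each of the 6 held TGATAA, while cutl- promoters held 1.91 per kb and 17 of 29 held TGATAA. Promoters with no WGATAR were those of cutl-1, cutl-11, cutl-13, cutl-14 and cutl-27. The windows differ in length, since genes with several 5′ ends have more promoter sequence, so members are compared per kb. The highest densities were 5.83 per kb in cut-2 and 5.00 in cut-6, against 2.55 in all promoters. cutl-8 held the highest number, 9, in 2402 bp (3.75 per kb), and cutl-12 held 7 in 3467 bp (2.02 per kb). A match is only a description of the letters.

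**Figure D2:**
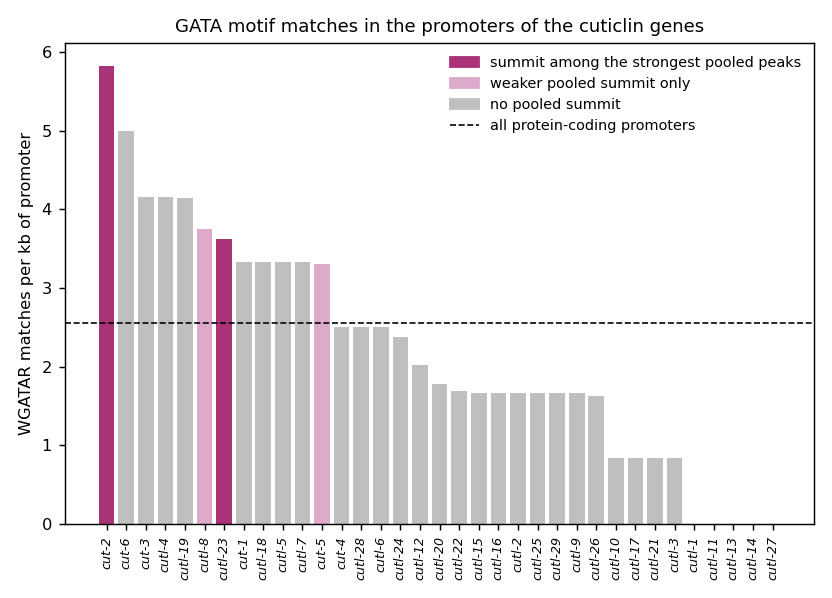
WGATAR matches per kb of promoter for each cuticlin gene (vertical axis, both strands), coloured by whether the promoter held a strong, a weaker or no pooled summit, with a dashed line at the density in all protein-coding promoters, 2.55. Members of high density are found with and without a summit: cut-2 had 5.83 per kb and a strong one, cut-6 had 5.00 and none, cutl-8 had 3.75 and a weaker one.

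cut-6, which acts in the dauer cuticle, is an example of a promoter with motifs and no strong peak. This is the common case, since 94.5% of all promoters held WGATAR and 7.84% had a summit of the strongest pooled peaks. The 6 matches of cut-6 were centred near −740, −656, −245, −221, −122 and −87, and the last 2 are the capitals of the stretch printed above. The weak replicate 4 summit, of rank 28717 at −246, lay on the match near −245, outside that stretch. The nearest of the strongest pooled summits lay 62400 bp from the cut-6 5′ end, and the nearest of the optimal list 78175 bp. At the summits themselves, 1 of the 2 member promoter summits in the strongest pooled peaks had WGATAR within 50 bp (50%, interval 9.45 to 90.5%), against 34.1% of the 1392 promoter summits of all genes. None of the 2 had TGATAA, against 20.5%. With 2 summits, no difference was detectable.

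In a wider reach, which takes in the promoters, strong peaks lay near more of the members, and these were looked up after the data were seen. Within the gene, a summit of the optimal list was found in 1 of 35 cuticlin genes, cutl-18, against 1.62% of all genes, and the strongest pooled peaks gave the same 1, against 5.20%. In the gene or within 5000 bp of it, 4 cuticlin genes had a summit of the optimal list, against 11.9% of all genes, and they were cut-3, cutl-17, cutl-18 and cutl-21. For the strongest pooled peaks it was 14 cuticlin genes (40%, interval 25.6 to 56.4%), against 28.5% of all genes. Among them, cutl-23 was counted by its promoter summit alone. The cuticlin genes were longer, with a median of 3952 bp, against 2027 bp for all genes, and a longer gene has a wider reach. What length adds to this count was not tested.

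Of the 20 strong summits within this reach, 2 were in the promoter of a member and 7 in the promoter of another gene. Over all 3141 strongest pooled summits, 1392 lay in a promoter, so these counts do not set the members apart. For 7 of the 20 the nearest 5′ end of a protein-coding gene was that of a member. Within 200 bp of a tRNA, snoRNA or snRNA gene lay 5 of the 20, against 250 of the 3141 (7.96%). A WGATAR within 50 bp was found at 8 of the 20, against 34.1% of the 1392 promoter summits. The motif share over all 3141 was not counted, and no difference was tested. From the 5′ end of a member, the median distance to the nearest of the strongest pooled summits was 13016 bp, against 15208 bp for all genes. For the optimal list it was 29805 bp, against 43275 bp, and for the whole pooled list 3009 bp, against 2304 bp.

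The strongest peak inside a member was that of cutl-18 (V, 11313362 to 11316901, − strand). It spanned V, 11314034 to 11314369, with rank 382, a signal value of 56.4 and a −log10 q of 2.41, and lay in an intron, 2699 bp downstream of the 5′ end. Matching summits had signal values of 10.1, 25.1 and 20.7 in replicates 1, 4 and 5, of ranks 2586, 378 and 211, at most 36 bp away, and replicate 2 had none within 100 bp. Replicates 1, 4 and 5 thus each had it among their strongest peaks. It had no WGATAR within 50 bp, the nearest being 108 bp away, and lay 56 bp from a snoRNA gene (V, 11314258 to 11314332, + strand). What the snoRNA gene contributes to it was not tested.

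The cutl-28 peak (cutl-28 at IV, 684497 to 688340, + strand) had rank 1815 and a signal value of 32.2, at −1355, with a WGATAR 11 bp from the summit and the tRNA gene 8 bp from it. Replicate 2 had a summit within 100 bp, of rank 2939, and replicate 5 one of rank 18531. Replicate 4 had a strong summit at −1463, of rank 1798, just beyond 100 bp from the pooled one. What the tRNA gene contributes was not tested.

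**Figure D3:**
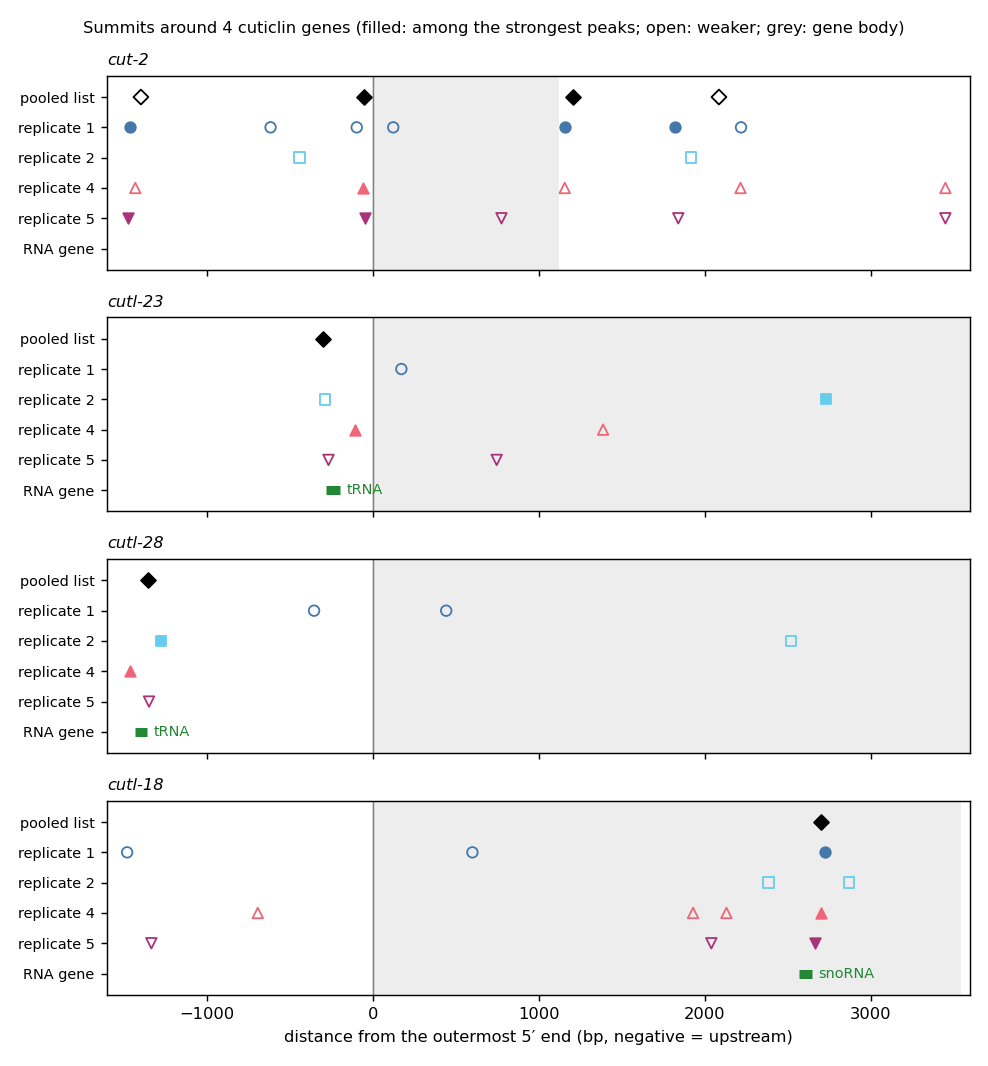
Summits around cut-2, cutl-23, cutl-28 and cutl-18 by distance from the outermost 5′ end (horizontal axis, bp, negative upstream), with 1 row for the pooled list and 1 for each replicate, the gene in grey and tRNA and snoRNA genes in green. Filled points are among the 3141 strongest of their list and open points are weaker; the pooled summits of cutl-23, cutl-28 and cutl-18 lie beside a marked gene, while that of cut-2 does not.

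Of the other optimal peaks near members, none was at a cuticlin 5′ end. Downstream of cut-3 lay a pair, 5796 and 6499 bp from its 5′ end, where the nearest 5′ ends were those of eif-3.G and lips-10. The nearer had rank 223 and a signal value of 67.2, with a WGATAR at the summit, and ranks of 11874, 159 and 89 in replicates 2, 4 and 5. The farther had rank 620, a signal value of 48.0 and no WGATAR within 50 bp. The cutl-17 peak, of rank 380, lay in the promoter of F38E11.9 and 78 bp from an snRNA gene, and the cutl-21 peak, of rank 679 with a WGATAR, lay 6941 bp downstream of the cutl-21 5′ end.

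Set beside other gene lists of the body surface, 5.71% of the cuticlin genes were bound in the strongest pooled peaks, against 7.84% of all genes. In these peaks the intervals of the lists overlap. Of 13 other apical matrix genes, 3 were bound (23.1%, interval 8.18 to 50.3%). They were sym-1, which encodes a leucine-rich repeat protein (rank 496, at −548), lpr-3, a lipocalin (rank 1355, at 8), and mlt-11, a molting protein with protease inhibitor domains (rank 2395, at 8). Of 156 numbered col- genes, which encode cuticle collagens, 13 were bound (8.33%, interval 4.93 to 13.7%). Over the replicates the mean share bound among the strongest peaks was 2.14 ± 2.74% for cuticlin genes, 15.4 ± 6.28% for the other apical matrix genes, 8.33 ± 2.82% for the col- genes and 6.69 ± 0.903% for all genes (SD, n = 4 each). In the whole pooled list, 4 of 35 cuticlin genes were bound (11.4%, interval 4.54 to 26.0%), against 24.2% of all genes. There, 8 of 13 other apical matrix genes (61.5%, interval 35.5 to 82.3%) and 45 of 156 col- genes (28.8%, interval 22.3 to 36.4%) were bound. The intervals of the cuticlin and the other apical matrix genes do not overlap in that list. The share of all genes lies inside the intervals of the cuticlin and the col- genes and below that of the other apical matrix genes. The lists were chosen with earlier results of these data known, so the intervals cannot serve as a test of a difference. Of the other apical matrix genes, 61.5% have 1 annotated 5′ end, against 73.7% of all genes, so more of them have a longer promoter window. What this adds to their count was not tested.

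**Figure D4:**
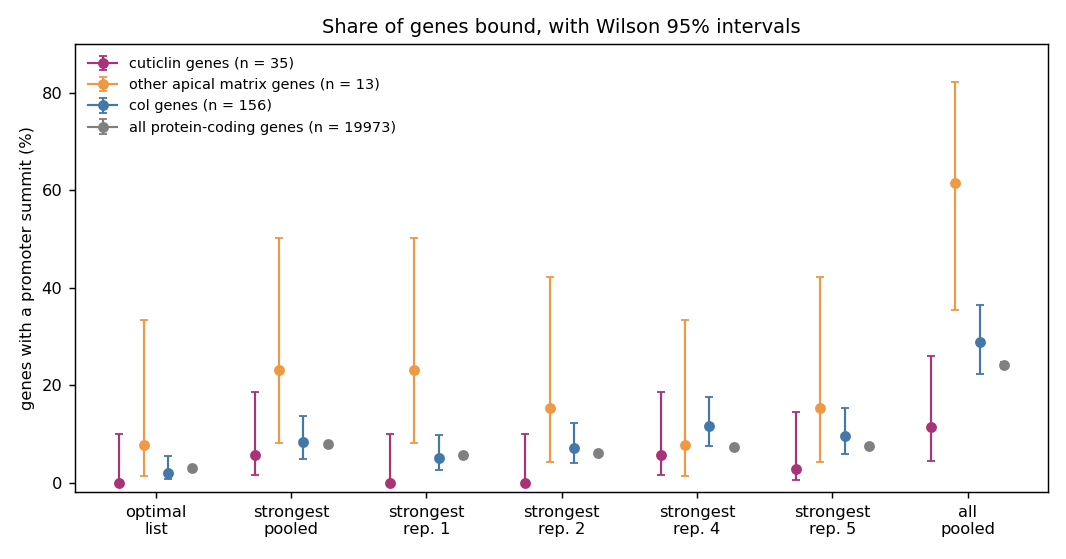
Share of genes with a promoter summit (vertical axis, percent) for cuticlin genes, other apical matrix genes, numbered col- genes and all protein-coding genes, in the optimal list, the strongest pooled peaks, the strongest peaks of each replicate and the whole pooled list. Points are shares and bars are Wilson 95% intervals. The cuticlin share was 0 in the optimal list and 5.71% in the strongest pooled peaks, and its interval reached past the share of all genes in each list shown.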

How the data were processed

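Peak lists for ELT-3 in L3 larvae were used as deposited. Per the file headers, the replicate lists hold peaks and background for the irreproducible discovery rate procedure, a further list was called on pooled replicates, and the optimal list passed that procedure's threshold. The signal value per peak and the −log10 q-value per peak are those the authors deposited; the first ranked peaks within 1 list and the second was only described. The list of replicate 2 was tied to it by the listings of its 3 libraries. The peak caller, aligner and depth were not given in the sources used here.

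From these, summits were placed on Ensembl release 115 genes of WBcel235 (the ce11 build, 1-based coordinates), and bound genes were counted with Python 3.11.15, numpy 2.4.6, scipy 1.17.1 and matplotlib 3.10.9. All 35 members were found in RefSeq, 30 with the same start and end. From replicate 5, 14 mitochondrial peaks were left out. Shares have Wilson 95% intervals, and no test was run on a gene list. The share that a count of 0 allows was taken as 3 divided by the number of genes. The counting was tested on simulated data and found 200 of 200 planted genes.

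The members were found by gene name, but this gene group and the other lists were chosen with earlier results of these data known. Named genes were members bound in the optimal list or the strongest pooled peaks, or in the strongest peaks of at least 2 replicates, and bound genes of the other apical matrix list, of which 13 of 14 names matched. Members near the limits, and peaks outside promoters, were named after their values were seen. Alternatives were other promoter windows and assignments, fewer or more peaks, leaving out each replicate, and another motif or motif window.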

Additional observations from a re-analysis of the deposited data

Results flagged for a closer look

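In 15 quantities compared over the 4 replicates, 2 had 1 replicate apart from the others. Chance sets a replicate apart in about 1 in 20 groups of continuous values, but that rate does not hold for these counts, where 3 equal values and 1 other always meet the limit. Replicate 4 had 3 cut- genes with a promoter summit anywhere in its list, against 40.3% of all genes. Each other replicate had 2, against 39.0, 38.4 and 40.5% in replicates 1, 2 and 5. At these shares, 2.34, 2.30, 2.42 and 2.43 of the 6 cut- genes would have been found in replicates 1, 2, 4 and 5. Replicate 4 had 1 cutl- gene, cutl-23, bound among its strongest peaks, against 7.39% of all genes. The others had 0, against 5.74, 6.11 and 7.53%. Each gap is 1 gene, so the counts are too small to tell the replicates apart.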

How the results depend on the processing

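The optimal count of 0 cuticlin genes stayed 0 with promoters of 500 bp upstream to 100 bp downstream (2.1% of all genes) or 2000 bp upstream to 500 bp downstream (4.2%). It stayed 0 also with the nearest (2.68%) or the outermost 5′ end only (2.65%), and in the stronger part of the list (1.47%). These shares all lie below 8.57%, so a count of 0 cannot tell the cuticlin genes from the rest in any of these settings. With summits anywhere in the gene the optimal count was 1, against 1.62% of all genes, and within 5000 bp 4, against 11.9%. The pooled count of 2 (7.84% of all genes) was 0 with as many peaks as the optimal list (2.95%), 2 with 6 times as many (13.2%), 4 with all peaks (24.2%), 1 in the gene (5.20%), 14 within 5000 bp (28.5%) and 1 without summits at tRNA, snoRNA and snRNA genes (7.46%). With the widest promoter it was 3, against 11.1% of all genes, adding cutl-28. The settings on the gene, on 5000 bp and on small RNA genes were chosen after seeing the data. The mean of 0.75 per replicate (mean of 6.69% of all genes) was 2.25 with the widest promoter (10.3%), 1.25 with the nearest 5′ end only (7.05%), 1.75 with 6 times as many peaks (11.8%) and 11.75 with all peaks (39.6%). Without each replicate in turn the mean lay between 0.333 (without replicate 4, 6.46% of all genes) and 1 (without replicate 1, 7.01%, or replicate 2, 6.89%). The count in every replicate was 3 with all peaks (9.59% of all genes). It stayed 0 with any 1 replicate left out. The share of all genes was not counted for that setting, so nothing about the members can be read from it. The motif share at member summits, 50%, was 0% for TGATAA. No paired analysis was possible because the libraries form 1 group. Depth is unknown, and a count of 0 among 35 members allows up to 8.57%.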
